A study of Mus musculus with 9 samples.

Results

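A set of 9 adhesion G protein-coupled receptors (GPCRs) of the brain was followed through FMRP and Hu crosslinking libraries: the latrophilins Lphn1, Lphn2 and Lphn3, the brain angiogenesis inhibitors Bai1, Bai2 and Bai3, and the Celsr cadherins Celsr1, Celsr2 and Celsr3. They were taken by symbol from the authors' gene table and are 9 of its 19079 genes with a transcript length. All 9 members carried at least 1 FMRP tag, as did 8812 genes of the table in all. The current names of Lphn1, Lphn2 and Lphn3 are Adgrl1, Adgrl2 and Adgrl3, and those of Bai1 and Bai2 are Adgrb1 and Adgrb2.

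Adhesion GPCRs join a long extracellular part, built from adhesion domains, to a membrane part of the G protein-coupled type, and many are cut by themselves at a site between both parts. Latrophilins were found as receptors of a spider toxin and bind teneurins and FLRT proteins across the synapse. BAI receptors carry thrombospondin repeats and bind C1q-like proteins and Nogo receptors, and the Celsr proteins are the mammalian counterparts of the fly protein Flamingo, with roles in planar polarity and axon guidance. FMRP, the protein lost in fragile X syndrome, is an RNA-binding protein found on polyribosomes of neurons.

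The study used HITS-CLIP, in which ultraviolet light joins a protein to the RNA it touches and the RNA fragments that precipitate with the protein are sequenced as tags. Polyribosomes came from cortex and cerebellum, dissected free of white matter, of FVB mice, and littermates were pooled. For Protocol 1 the labels name male wild-type mice. Fmr1-null littermates, run in parallel in most experiments, were not analysed here. Protocol 1 (dissociation in 1% SDS, 454 sequencing) gave 5 FMRP libraries. Of these, 3 used the mixed monoclonal antibodies 7G1-1 and 2F5, at postnatal days 14, 15 and 25 (P14, P15, P25), and 2 used the polyclonal antibody ab17722, at P14 and P25. Protocol 2 (2% SDS, Illumina sequencing) gave 2 FMRP libraries with ab17722, at P11 and P13. The same 2 lysates were also precipitated with a human antiserum to the neuronal Hu proteins, RNA-binding proteins that are found on brain polyribosomes too, which gave 2 Hu libraries.

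The authors' counts totalled 4331 to 8143 tags per 454 library and 24554 and 41836 tags in the Illumina FMRP libraries. The lists of tags placed on RefSeq transcripts ran from 4397 to 7713 tags (454) and from 25873 to 49847 (Illumina). With a count of 0 a gene can still hold up to 3 counts, or 60.2 to 682 CPM (tags per library, scaled so that all libraries have equal totals) on the transcript lists. Intervals for shares and ratios cover counting error only. Tags were found on all 6 neuronal, 5 astrocyte, 5 oligodendrocyte, 3 Purkinje cell and 3 granule cell markers examined, and on 2 of 5 microglial, 2 of 4 endothelial and 1 of 3 ependymal markers. Tags measure RNA joined to a protein, and the amount of the RNA and the binding per RNA molecule cannot be told apart from them.

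The first question was how much FMRP tag each receptor carried. Together the 9 members held 954 FMRP tags in the authors' counts, and 76.4% of these lay on Lphn1, Bai2 and Celsr2. The family made up 0.99% to 1.58% of all FMRP tags in the 5 libraries of Protocol 1 and 0.721% and 0.791% in the 2 libraries of Protocol 2. Per kilobase of transcript, Lphn1 and Bai2 stood at about the same level, Bai1 and Celsr2 lower, and the other members lower again.

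Lphn1 spans chr8:86423997-86465853 on the plus strand of mm9, the build named in the submitters' processing notes. Its counts were 17, 48 and 52 tags with the monoclonal antibodies at P14, P15 and P25. With the polyclonal antibody they were 38 and 23 at P14 and P25, and 70 and 101 on Illumina at P11 and P13. Scaled to the library, Lphn1 ran from 3925 to 6698 CPM on 454 and was at 2851 and 2414 CPM on Illumina, so every Protocol 1 library lay above both Protocol 2 libraries. Per kilobase its level was 543 ± 202 CPM (SD, n = 7), at the 99.9th percentile of the 8812 genes with a tag, whose median was 10.5 CPM per kilobase.

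Lphn3 and Lphn2, the other latrophilins, were far below Lphn1. Lphn3 (chr5:81450618-82224755, plus strand) had 2, 2 and 6 monoclonal tags, 2 and 2 polyclonal 454 tags, and 8 and 19 Illumina tags, or 39.1 ± 15 CPM per kilobase (SD, n = 7). Lphn2 (chr3:148478550-148617599, minus strand) had 0, 2 and 1 monoclonal tags, 1 and 0 polyclonal 454 tags, and 8 and 17 Illumina tags, or 21.3 ± 18.5 CPM per kilobase (SD, n = 7). Of its 29 tags, 25 came from the 2 deeper libraries.

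Bai2 (chr4:129662408-129699877, plus strand) had 16, 26 and 35 monoclonal tags at P14, P15 and P25. It had 22 and 11 polyclonal tags on 454 and 23 and 80 on Illumina. Its level was 540 ± 235 CPM per kilobase (SD, n = 7), with a lowest value of 180 at P11 and a highest of 826 in the monoclonal P25 library. Lphn1 was above Bai2 in 4 of 7 libraries, and their mean difference, 3.03, was far under the SD of that difference, 141.

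Bai1 (chr15:74346626-74419894, plus strand), the member best known as an engulfment receptor, had 6, 7 and 9 monoclonal tags, 19 and 12 polyclonal 454 tags, and 14 and 20 Illumina tags. Its level was 207 ± 130 CPM per kilobase (SD, n = 7), below Bai2 in 7 of 7 libraries. Bai3, which has neither a RefSeq accession nor gene bounds in the authors' table, had 0, 0 and 0 monoclonal tags, 3 and 1 polyclonal 454 tags, and 10 and 5 Illumina tags. That is 19.6 ± 22.9 CPM per kilobase (SD, n = 7), and the 3 libraries at 0 were the monoclonal ones.

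Celsr2 (chr3:108193766-108218412, minus strand) led its family in every FMRP library, with 12, 22 and 15 monoclonal tags, 9 and 5 polyclonal 454 tags, and 34 and 70 Illumina tags. Its level, 170 ± 72.9 CPM per kilobase (SD, n = 7), could not be ordered against that of Bai1, which was higher in 3 of 7 libraries. Celsr3 (chr9:108728651-108755300, plus strand) had 4, 4 and 2 monoclonal tags, 4 and 2 polyclonal 454 tags, and 8 and 18 Illumina tags, or 42.4 ± 19.8 CPM per kilobase. Celsr1 (chr15:85729188-85864207, minus strand) had 7 tags in all, in 5 libraries, or 8.45 ± 9.08 CPM per kilobase.

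In this order of the 9 levels, 2 steps held in 7 of 7 libraries: Bai2 above Bai1, and Celsr2 above Celsr3. The mean difference was 334 with an SD of 237 for the first step, and 128 with an SD of 63.1 for the second. At each of the 6 other steps the higher member led in 3 or 4 of 7 libraries only.

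**Figure D1:**
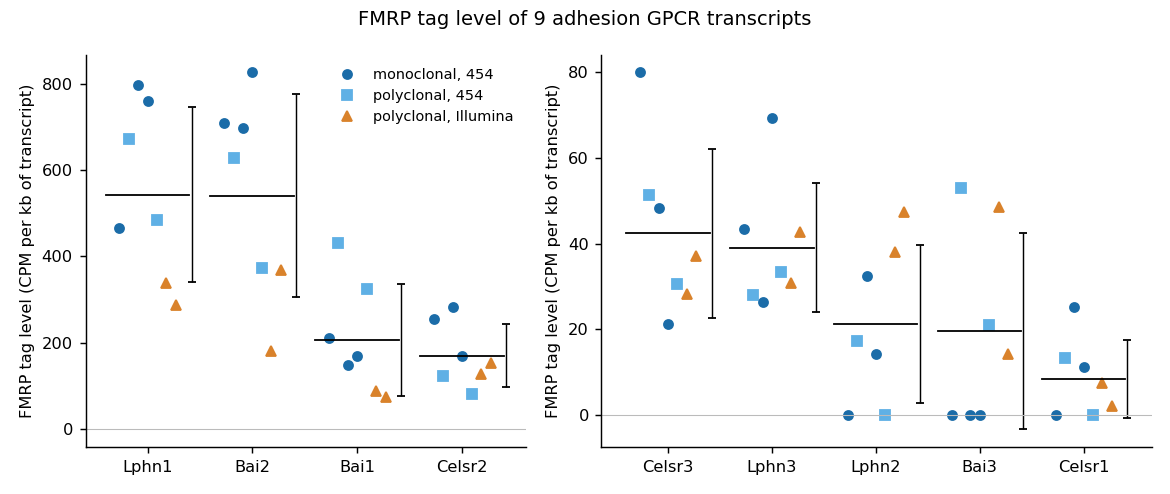
FMRP tag level, in CPM per kilobase of transcript (vertical axes), for the 9 members in order of their mean, 1 symbol per FMRP library, with the scale of the right panel 10 times finer; horizontal lines are means and bars are SDs over 7 libraries. Lphn1 (mean 543) and Bai2 (mean 540) overlap, and the Illumina triangles lie lowest for Lphn1, Bai2 and Bai1.

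The authors' table also gives each tag's place inside or outside the coding sequence. Of all FMRP tags of the 9 members, 86.1% ± 2.9 (SD, n = 7) lay in coding sequence, against 81.1% ± 5.55 (SD, n = 7) over all genes. The gap was widest in the P13 library, at 88.5% against 69.7%. In the monoclonal P25 library the members were lower, at 81% against 84.8%. In Lphn1, 274 of 349 tags were coding, or 78.5% (95% Wilson interval 73.9 to 82.5), while coding sequence makes up 52.5% of its 8408 nt transcript. The share in Lphn1 was above 52.5% in 7 of 7 libraries, from 67.3% in the monoclonal P25 library to 84.3% at P11.

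Coding shares above the coding share of length were the rule for genes with many tags. Over 1160 genes with 20 or more FMRP tags, 93.2% had such an excess, with a median of 23.2 percentage points. The excess was 26 points in Lphn1, 31.4 in Lphn3 and 37.4 in Lphn2, whose transcripts are about as much non-coding as coding. Bai1 was at 18.7 points, with 93.1% of 87 tags coding. Bai2 (205 of 213 tags), Celsr2 (147 of 167) and Celsr3 (40 of 42) had excesses of 4.97, 7.38 and 9.45 points, in transcripts that are 91.3%, 80.6% and 85.8% coding. For Celsr1 the interval from 7 tags, 48.7% to 97.4%, included its length share of 82.4%. For Celsr3 the interval, 84.2% to 98.7%, included its length share too.

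**Figure D2:**
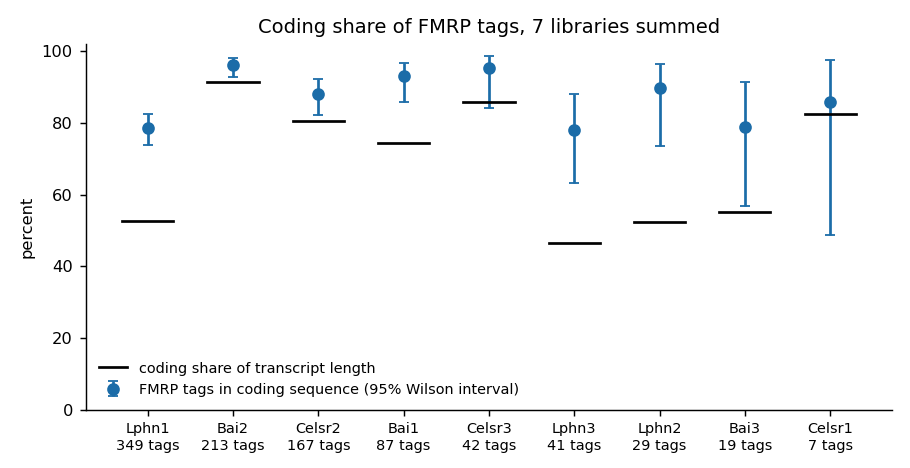
Percent of FMRP tags in coding sequence, 7 libraries summed, for each member (points, with 95% Wilson intervals) and the coding percent of the transcript length (black lines). The points lie above the lines in all 9 members, with intervals that reach the line in Celsr3 and Celsr1.

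FMRP was then compared with Hu on the 4 Illumina libraries, which share lysates, protocol and platform. On tags placed on transcripts, Lphn1 and Celsr3 were higher in FMRP by the test, as were 33.6% of the 1015 genes tested. On tags within gene bounds, Lphn1, Bai1, Bai2, Celsr3 and Lphn2 were, as were 32.3% of 911 genes. The call of Lphn2 was lost under several other settings given below. Celsr2 passed on neither count, and Lphn3, tested on the second alone, did not pass. Tags were counted in 2 ways, because the lists of transcript tags lack most Bai1 and Bai2 tags. Over the 7 FMRP libraries these lists held 8.05% as many tags as the authors' counts for Bai1, 23% for Bai2 and 31% for Lphn2. For the other 5 members with an accession the figure was 92.7% to 114%, and the median of 1061 genes with 20 or more tags was 108%. Sense tags within each gene's bounds, introns included, were therefore counted from the genomic lists as well, a choice made after the data were seen. Bai3 is in neither count. To be tested, a gene must be high enough in 2 libraries, which the libraries of 1 protein alone can provide. Bai1, Bai2, Celsr3 and Lphn2 entered the test through their FMRP libraries alone.

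Lphn1 had 79 and 120 FMRP tags on its transcript at P11 and P13, and 17 and 32 Hu tags. Both FMRP libraries, at 2948 and 2723 CPM, lay above both Hu libraries, at 657 and 642 CPM. The log2 ratio was 2.39 (SE 0.57, Benjamini-Hochberg adjusted p = 0.00682 from the quasi-likelihood test of edgeR), and the ratio of summed tags was 4.34 (95% exact counting interval 3.16 to 6.06). Of the 1015 genes tested 60.9% were called, 33.6% as higher in FMRP. A call in this direction was thus common. Without the P11 Hu library the log2 ratio was 2.16 and no longer passed (adjusted p = 0.0954), as was the case without a filter on low counts (2.22, adjusted p = 0.0833). With all 9 libraries and a platform term, where 202 genes were tested, it was 0.21 (adjusted p = 0.735).

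Celsr3 had 9 and 20 FMRP tags and 3 and 3 Hu tags, and a log2 ratio of 2.56 (SE 0.66, edgeR adjusted p = 0.01). The call was lost without the P11 Hu library (log2 ratio 2.73, adjusted p = 0.0981) and without the P13 Hu library (2.46, adjusted p = 0.11), and without the P13 FMRP library the gene was too low to be tested. It was also lost without a filter on low counts (2.37, adjusted p = 0.171). Celsr2 had 46 and 76 FMRP tags and 28 and 35 Hu tags. Its FMRP libraries, at 1717 and 1724 CPM, were above its Hu libraries, at 1082 and 702 CPM, but the log2 ratio of 1.24 (SE 0.57, adjusted p = 0.081) did not pass. It passed with DESeq2's size factors in edgeR, at 1.59 (adjusted p = 0.0289), and had the opposite sign with all 9 libraries and a platform term, at -0.90 (adjusted p = 0.121). So 2 of the 3 members tested on transcript tags were higher in FMRP, with a median log2 ratio of 2.39, against -0.16 over all genes tested. Celsr3, at 116 and 60.2 CPM in Hu, entered the test through its FMRP libraries alone. Most of the 9 members were not tested, so this median does not describe the family.

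The median over all genes depends on how libraries are scaled. It was 0.21 under the size factors of DESeq2 and -0.38 under plain library totals. Relative to these medians, Lphn1 stood at 2.55 to 2.56, Celsr3 at 2.66 to 2.72 and Celsr2 at 1.39 to 1.41 under these 3 scalings. The 618 calls divided into 341 higher in FMRP and 277 higher in Hu. DESeq2 itself called 334 and 128, and kept Lphn1 (adjusted p = 0.00373) and Celsr3 (adjusted p = 0.0201).

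On sense genomic tags the BAI receptors could be read. Bai2 had 23 and 82 FMRP tags and 0 and 0 Hu tags, so that FMRP was at least 40.5-fold higher when Hu is set to 3 counts over both libraries. Bai2 was called (edgeR adjusted p = 6.45e-06), and stayed called without any 1 of the 4 libraries. Bai1 had 15 and 21 FMRP tags and 3 and 3 Hu tags, a ratio of 6.94 (95% exact counting interval 2.9 to 20.2) and a log2 ratio of 2.95 (SE 0.70, edgeR adjusted p = 0.00127). That call was lost without either FMRP library (adjusted p = 0.0563 and 0.0712) and without the P13 Hu library (0.0626).

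Of 911 genes tested in this way 58.1% were called, 32.3% as higher in FMRP, and 5 of the 7 members tested were among the latter. Of these 5, Bai1, Bai2, Celsr3 and Lphn2 could be tested only because their FMRP counts were high. The number of members called is therefore no result about the family. The log2 ratio was 2.32 for Lphn1 (SE 0.57, edgeR adjusted p = 0.00172) and 2.21 for Celsr3 (SE 0.66, adjusted p = 0.00711). Lphn2, at 8 and 17 FMRP against 4 and 5 Hu tags, had a log2 ratio of 1.82 (SE 0.63, edgeR adjusted p = 0.0162). Leaving out the P11 FMRP library (adjusted p = 0.135) or either Hu library (0.203 and 0.378) ended the call, and so did the lysate as a block (log2 ratio 1.81, adjusted p = 0.0596). Celsr2 again did not pass, at 1.04 (SE 0.54, edgeR adjusted p = 0.0984).

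Lphn3 changed with the way of counting. On its transcript it had 3 and 21 FMRP tags and 1 and 4 Hu tags, a ratio of 5.13 (95% exact counting interval 1.92 to 17.2). Within its gene bounds, introns included, it had 9 and 31 FMRP and 6 and 23 Hu tags, a ratio of 1.6 (0.965 to 2.67) and a log2 ratio of 0.86 (SE 0.62, edgeR adjusted p = 0.233). Of its 29 sense genomic Hu tags, 3 were also in the transcript lists. In Celsr2 19 of 62 were, and in Lphn1 25 of 48, so this number does not tell how many lay in introns. Celsr1, with 3 FMRP and 5 Hu sense tags, was too low to be tested.

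Markers of other cells moved with the protein. Astrocyte markers (5 genes, all with tags) summed to 1791 and 1157 CPM in the FMRP libraries and to 77.3 and 241 CPM in the Hu libraries. Oligodendrocyte markers (5 genes, all with tags) summed to 149 and 2314 CPM in FMRP and to 5063 and 11616 CPM in Hu, and neuronal markers (6 genes) to 2911 and 5150 against 7305 and 12097 CPM. Their part in the values of the members was not tested.

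**Figure D3:**
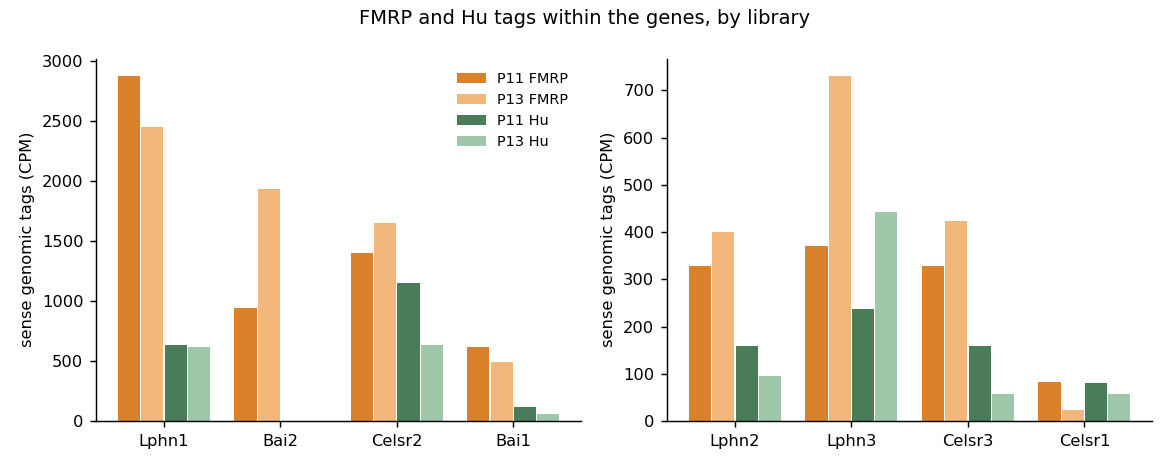
Sense genomic tags in CPM (vertical axes from 0) of 8 members in the 2 FMRP and 2 Hu Illumina libraries, 1 bar per library. Both FMRP bars are above both Hu bars for Lphn1, Bai2, Celsr2, Bai1, Lphn2 and Celsr3, and Bai2 has no Hu bar. Of these, Celsr2 did not pass the test, and how many of all genes have this order was not counted.

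FMRP and Hu tags lay in different stretches of the Lphn1 and Celsr2 transcripts. In Lphn1 the middle of the FMRP tags fell at 41.6% of the transcript length in the Illumina libraries (median of 199 tags) and at 42.1% in the 454 libraries (174 tags). Hu tags had their median at 93.9% of the length (49 tags). The last 25% of the Lphn1 transcript held 8 of 79 and 9 of 120 FMRP tags at P11 and P13, or 10.1% and 7.5%. It held 15 of 17 and 24 of 32 Hu tags, or 88.2% and 75%, so that both Hu libraries stood above all 7 FMRP libraries, of which the highest was at 17.6%.

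Celsr2 showed the same order. All 63 Hu tags, 28 at P11 and 35 at P13, lay in the last 25%, the first of them 8823 nt into the 10895 nt transcript. FMRP tags numbered 30, 44, 29 and 19 in 4 equal stretches from start to end of the transcript in the Illumina libraries, and 15, 12, 24 and 11 in the 454 libraries. The last 25% thus held 15.6% of the Illumina FMRP tags (95% Wilson interval 10.2 to 23) and 100% of the Hu tags (94.3 to 100). Celsr3, with 6 Hu tags, had 5 of them in its last 25%, where 4 of 29 Illumina FMRP tags lay. For Lphn3 this order could not be read: by the length in the authors' table, its last 25% held 0 of 5 Hu tags and 0 of 24 Illumina FMRP tags. No tag of either protein had its middle past 5784 nt of the 10616 nt length. Whether the RefSeq transcript that carries these tags is as long as that was not checked. The median position of the 5 Hu tags was at 10.6% of the length in the authors' table, and that of the 24 FMRP tags at 28.3%.

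A later position of Hu tags was common. Among 249 genes with 20 or more tags of each protein, the last 25% held more of the Hu than of the FMRP tags in 65.5%, with medians of 20.6% for Hu and 4.65% for FMRP. The difference was 71 points in Lphn1 and 84.4 points in Celsr2, at the 90.4th and the 96.4th percentile of these genes. Positions in all of them were taken against the lengths in the authors' table, which were not checked against the RefSeq transcripts.

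In genome coordinates, 22 of the 48 sense Hu tags of Lphn1 had their middle within chr8:86465549-86465648, a 100 nt stretch whose start is 305 nt before the end of the gene, and 0 of 354 FMRP tags did. For Celsr2 the densest 100 nt of Hu tags, chr3:108194634-108194733, held 19 of 62 Hu tags and 1 of 167 FMRP tags. The densest 100 nt of FMRP tags held 22 of 354 in Lphn1, 12 of 215 in Bai2 and 7 of 167 in Celsr2, or 6.21%, 5.58% and 4.19%, against 45.8% and 30.6% of the Hu tags in the densest windows of Lphn1 and Celsr2. These windows were found from the same tags, so their counts describe the tags and were not tested. An annotation of mm9 exons was not used here, and whether a window is in coding sequence or in an untranslated region is not stated.

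**Figure D4:**
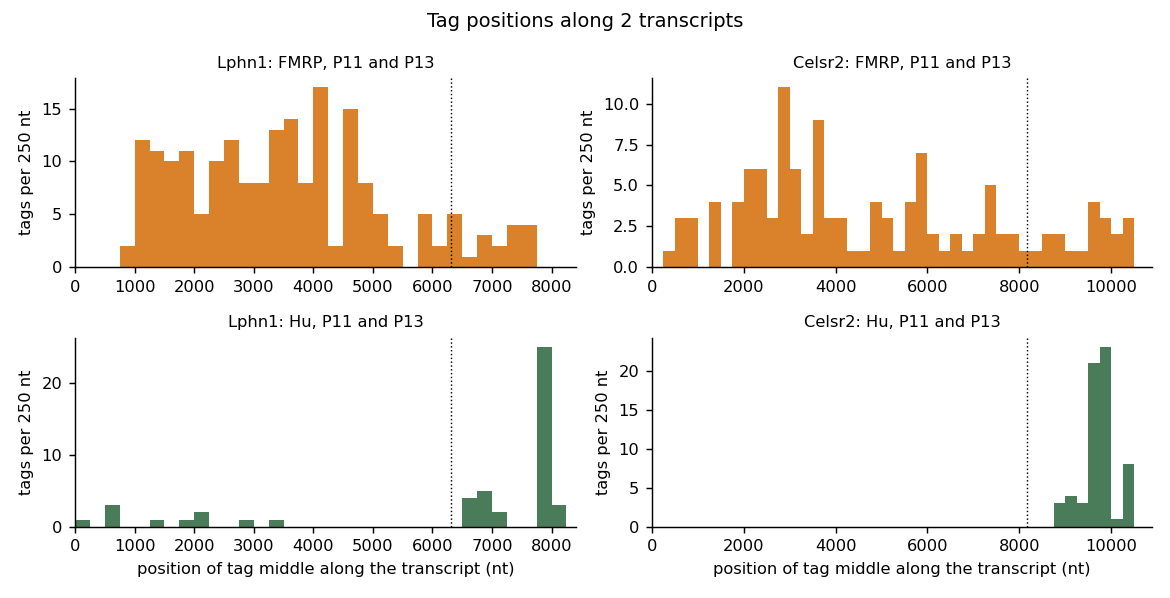
Number of tags per 250 nt (vertical axes) by the position of the tag's middle along the Lphn1 and Celsr2 transcripts (horizontal axes, nt), for the 2 FMRP libraries (top) and the 2 Hu libraries (bottom) of Protocol 2; the dotted line marks the start of the last 25%. FMRP tags run along most of each transcript, and 39 of 49 (Lphn1) and 63 of 63 (Celsr2) Hu tags lie to the right of the line.

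Within FMRP, the antibodies were compared on the 5 libraries of Protocol 1. No member was called, and neither was any of the 90 genes tested (0% called by edgeR, with 4 genes at an unadjusted p under 0.05, and 0 called by DESeq2). Bai1 was at 1385, 977 and 1105 CPM with the monoclonal antibodies and at 2820 and 2122 CPM with the polyclonal one. Its log2 ratio of monoclonal over polyclonal was -1.23 (SE 0.53, edgeR adjusted p = 0.997). Celsr2 lay the other way, at 2771, 3070 and 1842 against 1336 and 884 CPM, with a log2 ratio of 1.05 (SE 0.51, edgeR adjusted p = 0.997). Bai2 was at 3694, 3628 and 4298 CPM with the monoclonal antibodies and at 3266 and 1945 CPM with the polyclonal one. Its log2 ratio was 0.46 (SE 0.36, edgeR adjusted p = 0.997). Lphn1 had a log2 ratio of 0.15 (SE 0.35). The other 5 members were too low to be tested.

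Age was compared on the same libraries, P25 against P14 and P15, with the antibody as a term. The log2 ratio was 0.00 for Lphn1, -0.04 for Bai2 (SE 0.31), -0.18 for Bai1 (SE 0.52) and -0.60 for Celsr2 (SE 0.46). The SE used here is unreliable at a log2 ratio of 0.00 and is not given for Lphn1. None was called, nor was any of the 90 genes tested (0% called by edgeR, 6 genes at an unadjusted p under 0.05, 0 called by DESeq2).

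Protocol 2 was compared with Protocol 1 on the 4 polyclonal FMRP libraries, where protocol, platform and age differ together and cannot be told apart. Bai1 fell from 2820 and 2122 CPM to 570 and 478 CPM, a log2 ratio of -2.03 (SE 0.58, edgeR adjusted p = 0.0166), 1 of 4 members tested. Of the 315 genes tested 13% were called, 7.94% as higher and 5.08% as lower with Protocol 2. DESeq2 called none of the 315 and gave Bai1 an adjusted p of 0.275. The edgeR call was also lost without the P14 (adjusted p = 0.301) or the P25 library of Protocol 1 (0.0926) and without the P13 library of Protocol 2 (0.149). Lphn1 was at -0.68 (SE 0.44, edgeR adjusted p = 0.322), Bai2 at -0.64 (SE 0.50, adjusted p = 0.425) and Celsr2 at 0.66 (SE 0.57, adjusted p = 0.493). The split of 25 higher and 16 lower calls became 12 and 13 with DESeq2's size factors in edgeR.

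Genes that act with these receptors were read on the transcript tags of the 4 Illumina libraries, by the same test and against the same background of 33.6% higher in FMRP and 27.3% higher in Hu. Here too a gene can enter the test through 1 protein alone. Odz3, Shank1, Magi2 and Shank3 did so through FMRP, and C1ql3 and Cnr1 through Hu, so counts of calls per list depend on this. Of 25 ligand genes (teneurins, FLRTs, neurexins, C1q-like proteins, thrombospondins, Nogo receptors and UNC5 receptors), 6 could be tested, with a median log2 ratio of -0.89. Of these 1 was higher in FMRP and 1 in Hu. The former was Odz3, the teneurin now named Tenm3 and a ligand of latrophilins, with 22 and 30 FMRP tags and 0 and 1 Hu tags. Its ratio was 55.6 (95% exact counting interval 9.54 to 2236, edgeR adjusted p = 0.00223). On sense genomic tags Odz3 had 22 and 27 FMRP and 1 and 5 Hu tags, a log2 ratio of 3.48 (SE 0.73, edgeR adjusted p = 0.000464) in place of 5.75. On that count 7 ligand genes could be tested, and Odz4, another teneurin, chosen here after its values were seen, was also higher in FMRP (1.64, SE 0.62, edgeR adjusted p = 0.0264). C1ql3, a secreted ligand of Bai3, had 1 and 4 FMRP tags and 14 and 27 Hu tags, a log2 ratio of -2.61 (SE 0.71, edgeR adjusted p = 0.0125). The neurexin Nrxn2, at -0.65 (edgeR adjusted p = 0.403), did not pass.

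Of 23 intracellular partners (scaffolds, G proteins, arrestins and regulators of Rac), 7 could be tested, and 3 were higher in FMRP and 0 in Hu, with a median log2 ratio of 0.25. Shank1, a postsynaptic scaffold, had 101 and 72 FMRP tags and 0 and 1 Hu tags, a ratio of 185 (95% exact counting interval 32.7 to 7342). The scaffold Magi2 had 15 and 18 FMRP tags and 0 and 0 Hu tags (at least 11.8-fold higher), and Shank3 had 18 and 16 against 0 and 0 (at least 12.1-fold higher), each with an edgeR adjusted p of 0.00223. On sense genomic tags both had Hu tags, 12 and 12 in Magi2 and 9 and 4 in Shank3, and neither passed (edgeR adjusted p = 0.233 and 0.0675). Dlg4, which encodes the scaffold PSD-95, had a log2 ratio of 0.25 (edgeR adjusted p = 0.699). The G protein genes Gnao1 (-1.15) and Gnaq (-1.52) did not pass on transcript tags (edgeR adjusted p = 0.137 and 0.081) but were higher in Hu on sense genomic tags, at -1.42 (0.0399) and -1.68 (0.0235). Shank1 was not tested on that count. Of the 6 partners that were, 0 were thus higher in FMRP and 2 in Hu.

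None of the 12 planar polarity partners of Celsr proteins reached the level needed for the test. Among them, Vangl2, a membrane protein of that pathway, had 0 and 1 FMRP tags and 12 and 7 Hu tags, a ratio of 0.0562 (95% exact counting interval 0.00135 to 0.354). Prickle2 had 4 and 21 FMRP tags and 0 and 0 Hu tags on transcripts, but 6 and 23 against 10 and 10 on sense genomic tags. Prickle1 had 3 and 12 against 2 and 3, and the receptor Fzd3 had 6 and 6 against 7 and 1.

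Of 21 other adhesion GPCRs, 7 had any Illumina tag, 29 FMRP and 11 Hu tags in all, and none could be tested. The highest were Gpr123, at 3 and 8 FMRP and 2 and 2 Hu tags, and Gpr125, at 7 and 3 against 0 and 0, followed by Gpr56, with 3 FMRP and 2 Hu tags, and Gpr97, with 1 and 4. Plexins and Robo receptors, which like Celsr3 act in axon guidance, had 3 of 13 genes tested, and all 3 were higher in FMRP. They were Plxna2 (28 and 24 against 5 and 8, log2 ratio 2.38, edgeR adjusted p = 0.0178), Plxna1 (31 and 31 against 1 and 1) and Plxnd1 (16 and 29 against 0 and 1). Robo1, at 9 and 6 against 5 and 9, was not tested. On sense genomic tags 5 genes were tested and the same 3 were higher. On both counts these 3 entered the test through their FMRP libraries alone, so their share is no result about the list.

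Of 20 classical G protein-coupled receptors, which lack the adhesion part, 3 could be tested, with a median log2 ratio of -0.87. Cnr1, the cannabinoid receptor, had 6 and 10 FMRP tags and 20 and 93 Hu tags and was lower in FMRP, at -2.28 (SE 0.72, edgeR adjusted p = 0.0228). Gabbr1, a GABA-B receptor subunit, was at 0.15 (edgeR adjusted p = 0.838), and Grm5, a metabotropic glutamate receptor, at -0.87 (0.257). Gpr158, with 3 and 35 FMRP and 5 and 13 Hu tags, was not tested. On sense genomic tags 8 of these receptors could be tested, 2 were higher in FMRP and 1, again Cnr1, in Hu. The 2, chosen here after their values were seen, were Gabbr2, the other GABA-B receptor subunit (9 and 22 FMRP against 1 and 0 Hu tags, edgeR adjusted p = 0.000119), and Grm3 (9 and 18 against 1 and 6, adjusted p = 0.00496). No difference between these lists and the 9 members was tested.

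Lphn1 and Celsr2, the members with 100 or more transcript tags, were also matched with other genes by their level over all 9 libraries. Likeness was Pearson's r of log2(CPM + 100), over 277 genes with 100 or more tags, and it rests on points that share library depth and the contrast of FMRP with Hu. The genes most like Lphn1 included Madd (r = 0.975) and AW555464 (0.969). Over the 7 FMRP libraries alone their r was 0.825 and 0.769. The genes most like Celsr2 were Pctk1 (r = 0.87), D10Bwg1379e (0.847) and Peg3 (0.847), at 0.799, 0.867 and 0.851 over the FMRP libraries alone.

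Other columns of the authors' deposited table bear on the members. The authors' FDR was under 0.05 for 6 of the 9 members and for 5.61% of all 19079 genes. The 3 members above 0.05 were Lphn2, Bai3 and Celsr1. Lphn1, Lphn3, Bai1 and Bai3 are in the postsynaptic proteome list that the table cites, which holds 5.67% of its genes. Lphn1, Bai1 and Bai2 are among the 389 genes for which the table gives ratios of mRNP from another study. The ratio of wild-type to knockout mRNP in the authors' deposited table is 23.2 for Lphn1, 11.2 for Bai1 and 43.6 for Bai2. In the neurons of another data set cited there, the log2 expression was 11.68 for Lphn1, 10.80 for Bai3, 9.91 for Celsr2, 9.68 for Lphn3, 9.56 for Celsr3, 9.36 for Bai1 and 5.08 for Celsr1. The table also lists an exon array intensity, at 949 for Lphn1, 294 for Lphn2, 1205 for Lphn3, 1735 for Bai1, 98.6 for Bai2, 240 for Bai3, 144 for Celsr1 and 3180 for Celsr3. Intensities of different probes do not rank genes by the amount of their mRNA, and tag levels were not scaled by them.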

How the data were processed

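Each of the 9 libraries has a list of unique tags on the genome and one on RefSeq transcripts. Novoalign and mm9 are named in the submitters' processing notes, with no version. In the 454 lists the value deposited beside a tag is a count of merged reads, and in the Illumina lists it is a score of no stated meaning; neither was used, and 1 line was 1 tag. Per the file headers, the authors' table holds tag counts of the 7 FMRP libraries (whole transcript and coding sequence), lengths, an exon array intensity, a log2 expression value in neurons and mRNP ratios from another study. The authors' own p-value, chi-square score and FDR score stand in the same table, the FDR exceeding 1 in many lines; the way they were made is not stated in these sources.

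Transcript tags were summed to 11618 genes. CPM used the total of the respective list. Sense genomic tags were those whose middle lay within the mm9 bounds of the table, on the strand of the gene (15756 genes). FMRP was compared with Hu on transcript tags, and antibody, age and protocol on the authors' counts, with edgeR 4.0.16 (R 4.3.3; TMM, filterByExpr, quasi-likelihood test, Benjamini-Hochberg adjustment over all genes tested, threshold 0.05), with the groups compared and, for age, antibody as terms. The SE is the log2 ratio over the square root of F. The tests were also run on simulated counts with 1 fixed dispersion for all genes. Of 2-fold changes put in, 11.9% were recovered for FMRP against Hu, 12.5% for antibody, 50.0% for age and 15.4% for protocol. DESeq2 1.42.0, other scalings, no filter, genomic tags on both strands, 1 tag per position and left-out libraries were alternatives; sense genomic tags, with and without the lysate as a block, were added after the data were seen. Scripts ran in Python 3.11.15 (scipy 1.17.1, numpy 2.4.6, matplotlib 3.10.9, pandas 2.3.3).

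FMRP and Hu were precipitated from parts of the same P11 lysate and likewise at P13, per the labels, so these libraries are paired by lysate. The P11 minus P13 differences of both proteins had r = 0.174 across 1015 genes, which are not independent. Each library is a pool of littermates and replicates differ in age: a p-value reflects the spread of these libraries, which may be technical. The members and gene lists were chosen with earlier results of these data known. Named genes were the 9 members, the 3 genes most like each member with 100 or more transcript tags, and from each list the 4 genes with most Illumina tags and those called. Of the genes this rule names, 2 are not reported here.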

Additional observations from a re-analysis of the deposited data

Results flagged for a closer look

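In 4 of 18 sets of library values examined, 1 FMRP library lay apart from the others by a gap test at the 95% level, which flags about 1 set in 20 by chance. The Lphn3 tag level was 69.4 CPM per kilobase in the monoclonal P25 library, from 6 tags. The coding share was 81.8% for Bai2 in the polyclonal P25 library (9 of 11 tags), 75% for Celsr3 in the polyclonal P14 library (3 of 4 tags), and 0% for Celsr1 in the monoclonal P25 library, from a single tag.

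Tags also lay in places that the comparisons did not use. Within the bounds of Lphn3, 7 Hu tags were antisense, 3 at P11 and 4 at P13, against 0 FMRP tags. A further line of the authors' table for Lphn3, just past the gene's end at chr5:82224786-82231167, held 5 FMRP tags, all in the P13 library.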

How the results depend on the processing

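With the lysate as a replicate block, 600 genes were called in place of 618 for FMRP against Hu, and of the members tested on transcript tags none changed its call. On sense genomic tags the block gave 533 calls in place of 529, and Lphn2 lost its call (log2 ratio 1.81, adjusted p = 0.0596). Blocking the antibody comparison by age class gave 0 calls, as without it. Leaving out 1 library in turn gave 323 to 506 calls for FMRP against Hu (323 without the P11 Hu library), 0 for antibody, 0 to 1 for age and 0 to 20 for protocol. With all 9 libraries and a platform term, 202 genes passed the filter and 146 were called, Lphn1 was at 0.21 (edgeR adjusted p = 0.735) and Celsr2 at -0.90. Of those genes, 195 were also tested on the 4 libraries, with a median log2 ratio of 2.62 there. The protocol count of 41 became 25 with DESeq2's size factors in edgeR, 0 with DESeq2 and 20 with transcript tags; the cause was not tested.

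Without a filter on low counts Lphn1 (adjusted p = 0.0833) and Celsr3 (0.171) lost their FMRP call and Bai1 its protocol call (0.769), with 10338 and 8264 genes tested. Values near 0 changed sign: Bai2 by age at 0.04 without a filter and from -0.63 to 0.27 without single libraries (0.21 and 0.27 without the P14 and the P25 polyclonal library), and by protocol Lphn1 at 0.01 and Bai2 at 0.06 without a filter. Lphn2 missed the threshold with genomic tags of both strands (adjusted p = 0.0541). Of 249 values for single members under other settings, 223 kept their direction and side of the threshold, or moved by less than 1 SD. The 249 include tag levels without single libraries, where leaving out 1 of 7 values cannot move the mean by 1 SD. The number 223 is therefore no measure of how stable the calls are. The coding share of 86.1% ranged from 85.5% to 86.9% without single libraries, and the summed level of 1591 CPM per kilobase from 1514 to 1709. Of the 6 genes most like Lphn1 and Celsr2, 5 were kept with a pseudocount of 20. Depth limits Lphn2, Bai3 and Celsr1, at 29, 19 and 7 FMRP tags.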
